A study of Mus musculus with 21 samples.

Results

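The transcripts of 9 genes used as markers of mesothelial cells were followed in epididymal white fat, a visceral depot of male mice, across 2 states of the gut microbiota and 6 times of day. The set held Wt1, Bnc1, Msln, Upk3b, Upk1b, Lrrn4, Krt8, Krt18 and Krt19, taken by symbol from the gene name column of the deposited exon count table. All 9 were found among its 38087 genes. The mesothelium is the sheet of flat cells that lines the body cavities and covers the organs in them, visceral fat included. Its cells keep features of a simple epithelium, with keratin filaments and apical surface glycoproteins, and yet carry the transcription factor WT1, which is also present in stromal progenitor cells of visceral fat. Subcutaneous fat has no such covering, so these transcripts are known as a mark of visceral depots.

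The animals were C57BL/6j males of 15-16 weeks, either germ-free, raised without microbes, or conventional raised, with a normal microbiota, and both groups ate ad libitum. Total RNA was sequenced from 9 germ-free libraries (1 at each of zeitgeber time ZT02, ZT14 and ZT18, 2 at each of ZT06, ZT10 and ZT22) and 12 conventional libraries (2 at each of ZT02, ZT06, ZT10, ZT14, ZT18 and ZT22), where zeitgeber time counts hours from lights on. The design asked how the fat transcriptome and its daily course depend on the microbiota. It is not said that the libraries stem from different mice, so p-values reflect only how these libraries vary, which may in part be technical.

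Total counts ranged from 28900903 to 48348181 in germ-free and from 24388294 to 37097857 in conventional libraries. Levels are given as CPM, read counts scaled to a common library size with TMM factors (trimmed mean of M values). Summed markers of adipocytes averaged 20115 ± 2685 CPM in germ-free and 18470.2 ± 2293 CPM in conventional libraries (SD, n = 9 and 12), so defining transcripts of fat cells were abundant. Some libraries stood apart, and these touch the results. Germ-free ZT02 replicate 2, the only germ-free library at that time, had the highest summed level of the 9 markers of all libraries, 680.3 CPM. A set of 6 libraries, 3 of each arm, carried more than 5 times the median level of transcripts of the male ducts and glands beside the depot (germ-free ZT06 replicate 2 and ZT22 replicates 1 and 2; conventional ZT02 replicates 1 and 2 and ZT10 replicate 2). In bulk RNA, fewer cells of a type and less RNA per cell cannot be told apart.

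All 9 markers were well covered, with 71 to 8575 reads per gene and library. Per kilobase of exon, Upk3b stood highest at a mean of 62.3 CPM per kb over the 21 libraries, followed by Msln at 24.4, Krt19 at 20.8, Upk1b at 20.0, Lrrn4 at 16.3, Krt8 at 15.1, Krt18 at 9.75, Wt1 at 4.11 and Bnc1 at 3.95 CPM per kb. The low ranks of Wt1 and Bnc1 are those of the 2 transcription factors in the set. The coefficient of variation over the libraries was 20.7% for Wt1, between 23.1% and 27.5% for Bnc1, Upk1b, Upk3b and Lrrn4, 40.3% for Msln, 42.8% for Krt19, and 85.9% and 87.3% for Krt8 and Krt18. The ranges of genes next to each other in the order of levels overlapped over the libraries.

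The markers Upk3b, Lrrn4 and Bnc1, whose levels moved together closely across libraries, are shown with their promoter windows, from 250 bases before to 50 bases after the RefSeq start site on GRCm38.p6, on the strand of the gene. They lie at chr5:136038246-136038545 (plus strand), chr2:132880813-132881112 (minus strand) and chr7:81992250-81992549 (minus strand). Capitals mark matches to the TEAD motif GGAATG, read as CATTCC on the other strand, and to the Sp and KLF motif GGGGCGGGG.
Upk3b: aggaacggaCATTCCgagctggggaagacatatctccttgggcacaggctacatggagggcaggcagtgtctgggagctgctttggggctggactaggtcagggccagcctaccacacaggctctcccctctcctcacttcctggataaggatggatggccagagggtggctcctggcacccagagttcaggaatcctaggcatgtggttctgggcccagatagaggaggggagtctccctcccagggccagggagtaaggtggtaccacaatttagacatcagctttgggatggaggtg
Lrrn4: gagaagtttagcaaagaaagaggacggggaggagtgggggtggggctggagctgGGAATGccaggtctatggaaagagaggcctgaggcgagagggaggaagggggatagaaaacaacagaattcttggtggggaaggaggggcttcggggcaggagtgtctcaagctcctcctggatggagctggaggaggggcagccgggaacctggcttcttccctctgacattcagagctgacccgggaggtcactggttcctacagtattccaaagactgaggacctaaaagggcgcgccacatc
Bnc1: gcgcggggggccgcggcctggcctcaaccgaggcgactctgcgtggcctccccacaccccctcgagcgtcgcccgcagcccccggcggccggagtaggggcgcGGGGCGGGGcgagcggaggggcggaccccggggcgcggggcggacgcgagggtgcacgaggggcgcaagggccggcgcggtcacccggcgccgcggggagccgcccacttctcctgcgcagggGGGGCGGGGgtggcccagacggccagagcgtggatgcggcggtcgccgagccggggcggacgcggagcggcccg

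The TEAD letters lie 241 bases upstream of the Upk3b start and 196 bases upstream of the Lrrn4 start, and 14.7% of the 32851 mouse promoters in the table hold them on either strand. Bnc1 holds the Sp and KLF letters 147 and 24 bases upstream of its start, and 11.4% of promoters hold them. The WT1 motif GCGGGGGCG, present in 2.91% of promoters, was in none of the windows of the 5 markers with an entry (Upk3b, Lrrn4, Bnc1, Krt8 and Krt18), and those of Krt8 and Krt18 held none of the 3 motifs. The matches are letters in these windows and were not tested as sites.

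Germ-free fat held less Wt1 transcript than conventional fat, and Wt1 was the only 1 of the 9 markers to pass the test between arms. None was higher, 1 was lower and 8 did not pass, where 15.3% of the 18334 genes tested were called higher and 11.6% were called lower in germ-free fat. The fold change was below 0 for 8 of the 9 markers, whereas it was above 0 for 10053 of the 18334 genes tested. The median log2 fold change was -0.21 over the set and 0.03 over all genes tested. Some lists of other cell types also leaned below 0. The fold change was above 0 for 0 of 8 macrophage, 3 of 12 progenitor and fibroblast and 2 of 15 ciliated duct cell genes. It was above 0 for 4 of 8 adipocyte and 7 of 8 endothelial genes. The markers moved together across libraries, so their directions are not independent. The test was edgeR's quasi-likelihood F test over all 21 libraries, with time of day as a factor and Benjamini-Hochberg adjustment over all genes.

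Wt1, a zinc-finger transcription factor at chr2:105126529-105173616, reached 15.6 CPM in the lowest, 21.2 in the median and 27.4 in the highest germ-free library, against 23.4, 28.4 and 34.8 CPM in conventional libraries. All 9 germ-free libraries lay below the conventional median and 7 of them lay below every conventional library, so the arms overlapped only slightly. No marker separated the arms in full, and 0.665% of genes did. The log2 fold change was -0.46 ± 0.07 (SE; means 20.9 ± 3.37 and 28.9 ± 3.55 CPM, SD, n = 9 and 12; edgeR quasi-likelihood adjusted p = 5.34e-04). Leaving out each library in turn kept the call in 21 of 21 fits, with adjusted p from 3.19e-04 to 0.00164. Within the libraries numbered 1 alone it was -0.59 (adjusted p = 0.160; 0% of genes called lower) and within those numbered 2 alone -0.41 (adjusted p = 0.0666; 2.57% called lower), so the direction held in both subsets and the call in neither. Wt1 has the longest exons of the set, 6195 bases, and long genes tended to read lower in germ-free libraries: the rank correlation of exon length with a library's deviation from the mean level was below 0 in 7 of 9 germ-free libraries (range -0.31 to 0.10) and in 1 of 12 conventional libraries (range -0.11 to 0.18). With offsets that remove this trend in each library, the log2 fold change of Wt1 was -0.41 (edgeR quasi-likelihood adjusted p = 0.00103).

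Bnc1, basonuclin 1, the other zinc-finger transcription factor (chr7:81966672-81992292), spanned 13.7, 17.2 and 29.9 CPM (lowest, median and highest) in germ-free and 14.8, 20.7 and 26.1 CPM in conventional libraries. Of the germ-free libraries, 8 of 9 were below the conventional median and the remaining one, ZT02 replicate 2, was above every conventional library. Its log2 fold change of -0.21 ± 0.12 did not pass (edgeR quasi-likelihood adjusted p = 0.206). Its exons overlap those of an antisense gene, 4833418N17Rik, and the strand setting of the counting is not given in the sources used here.

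Among the surface proteins, Upk3b, a uroplakin best known from the bladder lining and a defining transcript of mesothelium (chr5:136038496-136046487), had 90.0, 122 and 229 CPM (lowest, median and highest) in germ-free and 105, 156 and 214 CPM in conventional libraries. Upk1b, a tetraspanin of the same family (chr16:38773184-38800328), had 24.5, 31.1 and 62.2 CPM in germ-free and 27.8, 34.9 and 45.8 CPM in conventional libraries. Lrrn4, a transmembrane protein with leucine-rich repeats (chr2:132868305-132880891), had 40.8, 53.5 and 111 CPM in germ-free and 44.1, 64.0 and 87.2 CPM in conventional libraries. For each of these 3 genes, 8 of 9 germ-free libraries lay below the conventional median and ZT02 replicate 2 lay above all conventional ones. Their log2 fold changes were -0.28 ± 0.14 for Upk3b (edgeR quasi-likelihood adjusted p = 0.152), -0.12 ± 0.13 for Upk1b (adjusted p = 0.552) and -0.22 ± 0.15 for Lrrn4 (adjusted p = 0.313).

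Msln, mesothelin, a lipid-anchored glycoprotein of the mesothelial surface (chr17:25748613-25754378), showed the least shift of this group over all 21 libraries. It spanned 29.5, 41.1 and 119.8 CPM (lowest, median and highest) in germ-free and 31.2, 46.6 and 86.9 CPM in conventional libraries, with 6 of 9 germ-free libraries below the conventional median. The log2 fold change was -0.07 ± 0.23 (edgeR quasi-likelihood adjusted p = 0.857). Without germ-free ZT02 replicate 2, its highest library, it was -0.36, between Upk1b at -0.29 and Lrrn4 at -0.39.

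The keratins build the intermediate filaments of simple epithelia, in which the type II keratin Krt8 pairs with a type I partner, Krt18 or Krt19. Krt19 (chr11:100140810-100148665) had 14.1, 31.0 and 62.4 CPM (lowest, median and highest) in germ-free and 24.0, 37.0 and 79.2 CPM in conventional libraries, with a log2 fold change of -0.31 ± 0.19 (edgeR quasi-likelihood adjusted p = 0.247). Krt8 (chr15:101996698-102004482) had 5.92, 11.8 and 102.7 CPM in germ-free and 9.78, 20.0 and 60.8 CPM in conventional libraries. Krt18 (chr15:102028180-102032027) had 3.99, 6.65 and 51.9 CPM in germ-free and 2.70, 9.21 and 25.5 CPM in conventional libraries. The highest germ-free value of Krt8 and of Krt18 came from ZT22 replicate 1, and the arms overlapped: 1 germ-free library was above every conventional one for Krt8 and 2 were for Krt18. Log2 fold changes were -0.04 ± 0.48 for Krt8 (edgeR quasi-likelihood adjusted p = 0.967) and 0.24 ± 0.54 for Krt18 (adjusted p = 0.796), with the widest SEs of the 9 markers. The pair lie side by side and read away from each other, with 23698 bases between their start sites, and the exons of Krt8 overlap an antisense gene, Gm36026.

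**Figure D1:**
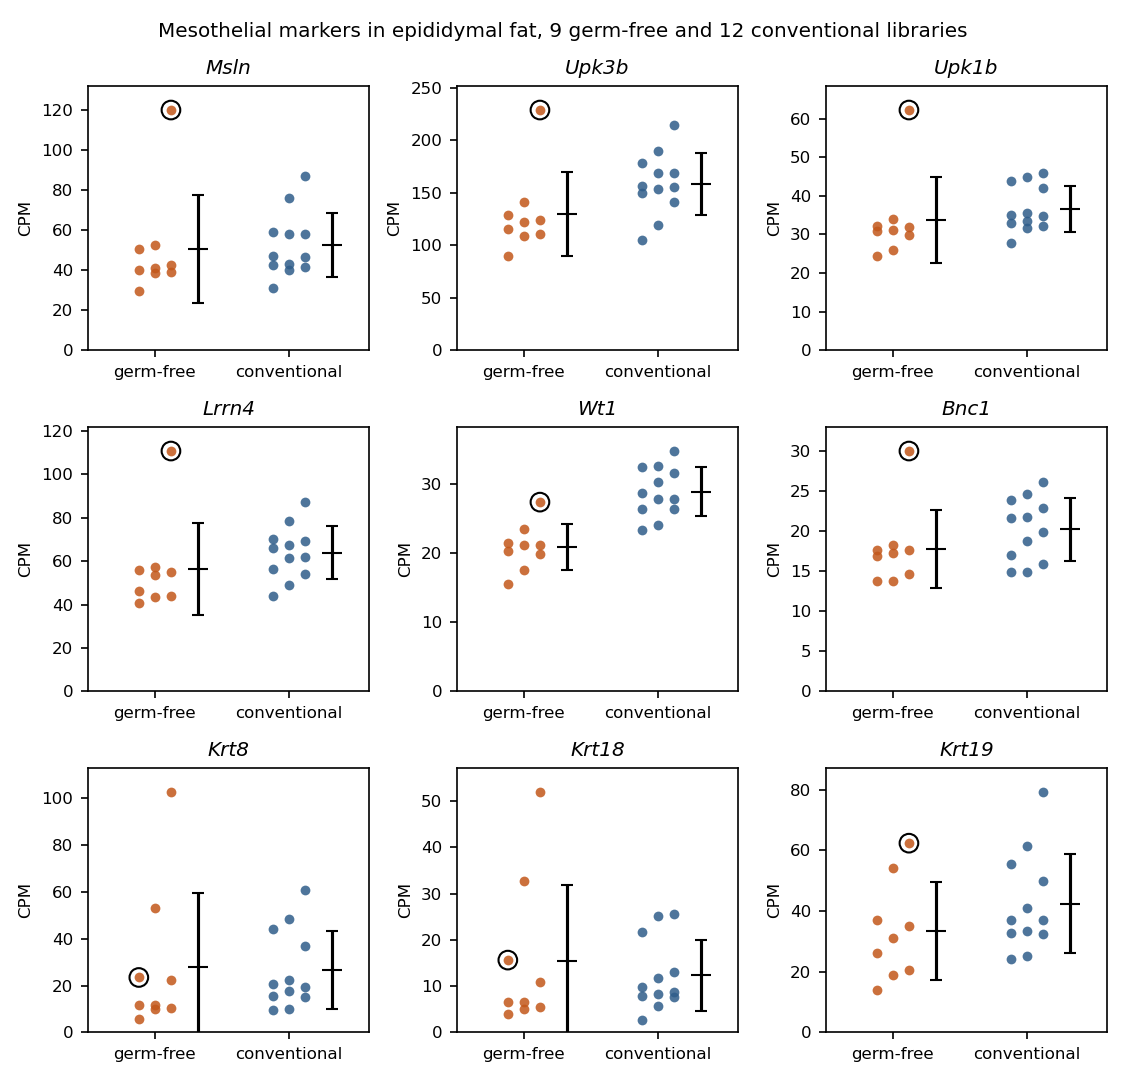
Level (CPM, y axis) of each of the 9 markers in the 9 germ-free and 12 conventional libraries (x axis). Points are libraries, bars are means ± SD (cut off at 0), and a ring marks germ-free ZT02 replicate 2, which is the highest germ-free library for 7 of the 9 markers. For Wt1, 7 of 9 germ-free libraries lie below every conventional one.

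Leaving out germ-free ZT02 replicate 2 changed the count more than leaving out any other library. Without it, 5 of 9 markers were lower in germ-free fat and none was higher, where 13.2% of the 18451 genes then tested were called lower and 15.4% higher. Besides Wt1 at a log2 fold change of -0.51, these were Upk3b at -0.43 (edgeR quasi-likelihood adjusted p = 0.0176), Lrrn4 at -0.39 (adjusted p = 0.0261), Bnc1 at -0.34 (adjusted p = 0.0254) and Upk1b at -0.29 (adjusted p = 0.0327). Msln moved to -0.36 and did not pass (adjusted p = 0.135). No germ-free library at ZT02 remains in that fit, so with time as a factor the arms are compared over the other times only. The library was high in other cell types as well: its summed macrophage markers were 1653 CPM, against a germ-free median of 979 CPM, and its summed progenitor and fibroblast markers were 3959 CPM, the highest germ-free value. Its duct and gland markers summed to 22.5 CPM. Markers of Sertoli and germ cells, outside that sum, summed to 40.2 CPM in it. Their germ-free median was 4.84 CPM and the highest germ-free value 64.0 CPM, in ZT06 replicate 1. The part of these transcripts in the result was not tested.

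The count of lower markers also changed without the libraries rich in duct transcripts, in a fit that changed the times compared as well. Without all 6 of them, 7 of 9 markers were lower in germ-free fat (11.8% of genes called lower), all but Msln and Krt18. That comparison leaves 6 germ-free and 9 conventional libraries with no conventional library at ZT02 and no germ-free library at ZT22, so germ-free ZT02 replicate 2 then has no counterpart and drops out of the contrast. With a cosine and sine for time in place of the factor, an alternative chosen after seeing the data, Wt1 alone was lower, at -0.49 (edgeR quasi-likelihood adjusted p = 0.00320; 7.93% of genes called lower).

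**Figure D2:**
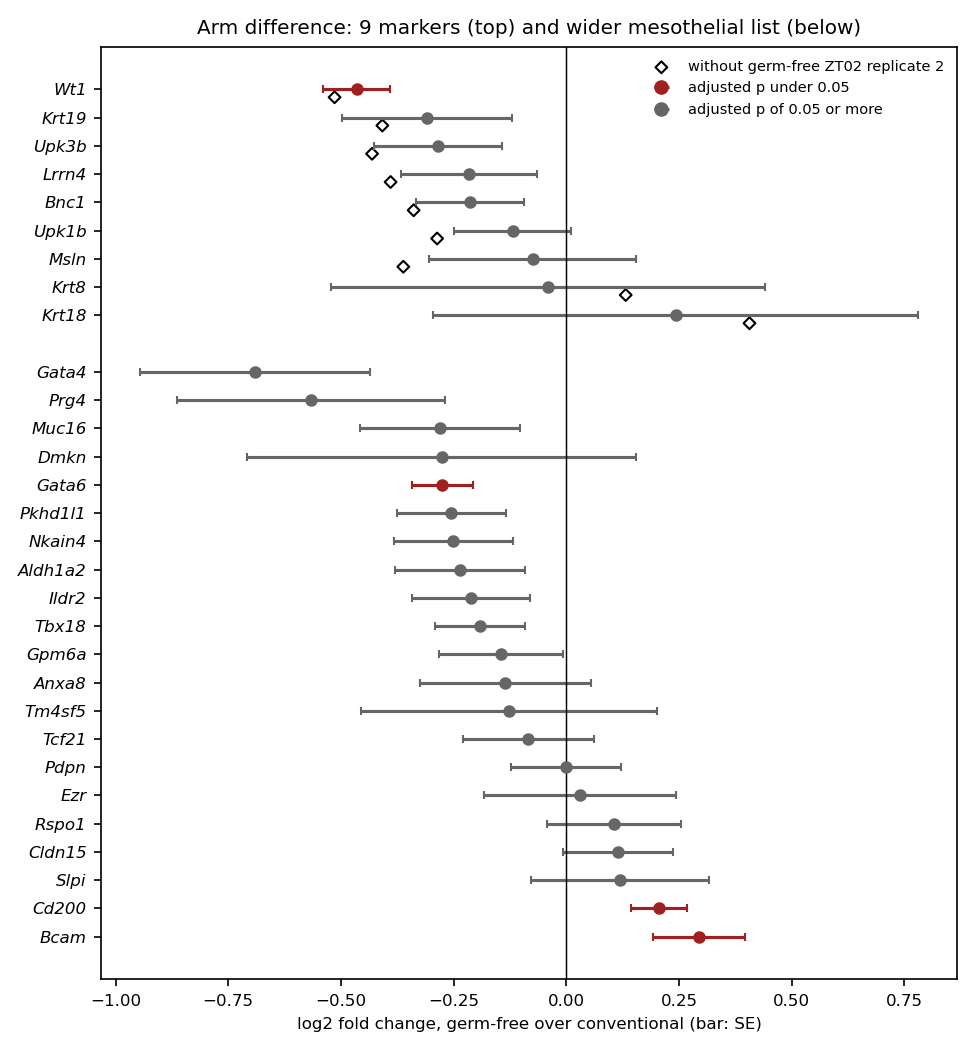
Log2 fold change, germ-free over conventional (x axis; points with SE bars), for the 9 markers (top) and 21 further mesothelial genes (below), red where the adjusted p is under 0.05 and grey otherwise. Open diamonds give the 9 markers without germ-free ZT02 replicate 2: Upk3b, Lrrn4, Bnc1, Upk1b and Msln lie further left there, and Krt8 and Krt18 further right.

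Of a wider list of 22 genes linked to mesothelium, 21 were tested. In germ-free fat 2 were higher (15.3% of all genes tested), 1 was lower (11.6%) and 18 did not pass, as 13406 of all 18334 genes did not. The median log2 fold change was -0.14, with 6 of the 21 above 0, beside 10053 of all 18334 genes. Gata6, a zinc-finger factor of visceral mesoderm, was lower in germ-free fat at 22.6 ± 2.64 CPM against 27.0 ± 3.01 CPM in conventional fat (log2 fold change -0.28 ± 0.07; edgeR quasi-likelihood adjusted p = 0.00668), and kept its call without each of the 21 libraries. Cd200, a surface glycoprotein that dampens myeloid cells, was higher at 42.0 ± 5.17 CPM in germ-free against 36.6 ± 4.64 CPM in conventional fat (0.21 ± 0.06; adjusted p = 0.0223). Its call was lost without germ-free ZT02, ZT14 or ZT18 replicate 2. Bcam, a laminin-binding adhesion molecule, was higher at 81.5 ± 19.0 CPM in germ-free against 66.9 ± 7.70 CPM in conventional fat (0.29 ± 0.10; adjusted p = 0.0423). Its call remained only without conventional ZT10 replicate 1 or ZT18 replicate 2 or germ-free ZT06 replicate 1, ZT10 replicate 2 or ZT18 replicate 2, and was lost without each of the other 16 libraries.

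Of the 2 named genes that did not pass, Gata4 stood at 0.425 ± 0.169 CPM in germ-free and 0.670 ± 0.215 CPM in conventional fat (log2 fold change -0.69 ± 0.26; edgeR quasi-likelihood adjusted p = 0.0549). Pkhd1l1, a large membrane protein of the fibrocystin family, stood at 170.6 ± 55.4 and 200.3 ± 30.8 CPM in germ-free and conventional fat (-0.26 ± 0.12; adjusted p = 0.130). Without germ-free ZT02 replicate 2, Pkhd1l1 reached -0.41 (adjusted p = 0.00317). The list then held 6 lower and no higher genes, where 13.2% of genes were called lower and 15.4% higher. Calb2, calretinin, a classical human mesothelial marker, did not exceed 0.199 CPM in any library and was not tested.

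Related genes of the same families were measured beside the markers. Other uroplakins (Upk1a, Upk2, Upk3a and Upk3bl) summed to at most 0.597 CPM in any library, so Upk3b and Upk1b stood without the rest of the bladder set, and none of these 4 was tested. Of 10 other keratins 7 were tested, and 1 passed, where 26.9% of all genes tested were called in either direction. It was Krt80, lower at 2.46 ± 0.746 CPM in germ-free and 3.97 ± 0.785 CPM in conventional fat (log2 fold change -0.67 ± 0.16; edgeR quasi-likelihood adjusted p = 0.00594). Of 12 genes for tight junctions and adhesion of simple epithelium, 9 were tested and none passed, beside the same 26.9% of all genes.

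By time of day, Wt1 gave the plainest picture. Germ-free libraries had 27.4 CPM at ZT02, 21.2 and 23.5 at ZT06, 20.3 and 21.5 at ZT10, 17.6 at ZT14, 21.2 at ZT18, and 19.9 and 15.6 CPM at ZT22. Conventional libraries had 32.5 and 28.8 CPM at ZT02, 34.8 and 31.6 at ZT06, 30.4 and 23.4 at ZT10, 32.7 and 27.9 at ZT14, 24.2 and 26.4 at ZT18, and 26.4 and 27.9 CPM at ZT22. Every germ-free library was below both conventional libraries of its own time. Each time rests on few libraries. The share of all genes with this separation at every time was not recorded, so how unusual it is was not tested.

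Upk3b did not show that separation. Germ-free libraries had 228.6 CPM at ZT02, 142 and 108 at ZT06, 124 and 90.0 at ZT10, 110.2 at ZT14, 115 at ZT18, and 128 and 122 CPM at ZT22. Conventional libraries had 156 and 150.1 CPM at ZT02, 169 in both at ZT06, 214 and 119 at ZT10, 189.5 and 141 at ZT14, 153 and 178 at ZT18, and 105 and 155 CPM at ZT22. The germ-free level was above both conventional libraries at ZT02, below both at ZT06, ZT14 and ZT18, and between the conventional libraries at ZT22. At ZT10 1 germ-free library was between them and 1 below both.

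Krt19 carried its highest germ-free values at both ends of the day. Germ-free libraries had 62.4 CPM at ZT02, 26.1 and 37.2 at ZT06, 18.9 and 14.1 at ZT10, 20.7 at ZT14, 31.0 at ZT18, and 54.1 and 35.2 CPM at ZT22. Conventional libraries were highest at ZT18 and ZT02, with 61.5 and 79.2 CPM at ZT18, 55.5 and 49.8 at ZT02, and between 24.0 and 41.1 CPM at the remaining times.

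**Figure D3:**
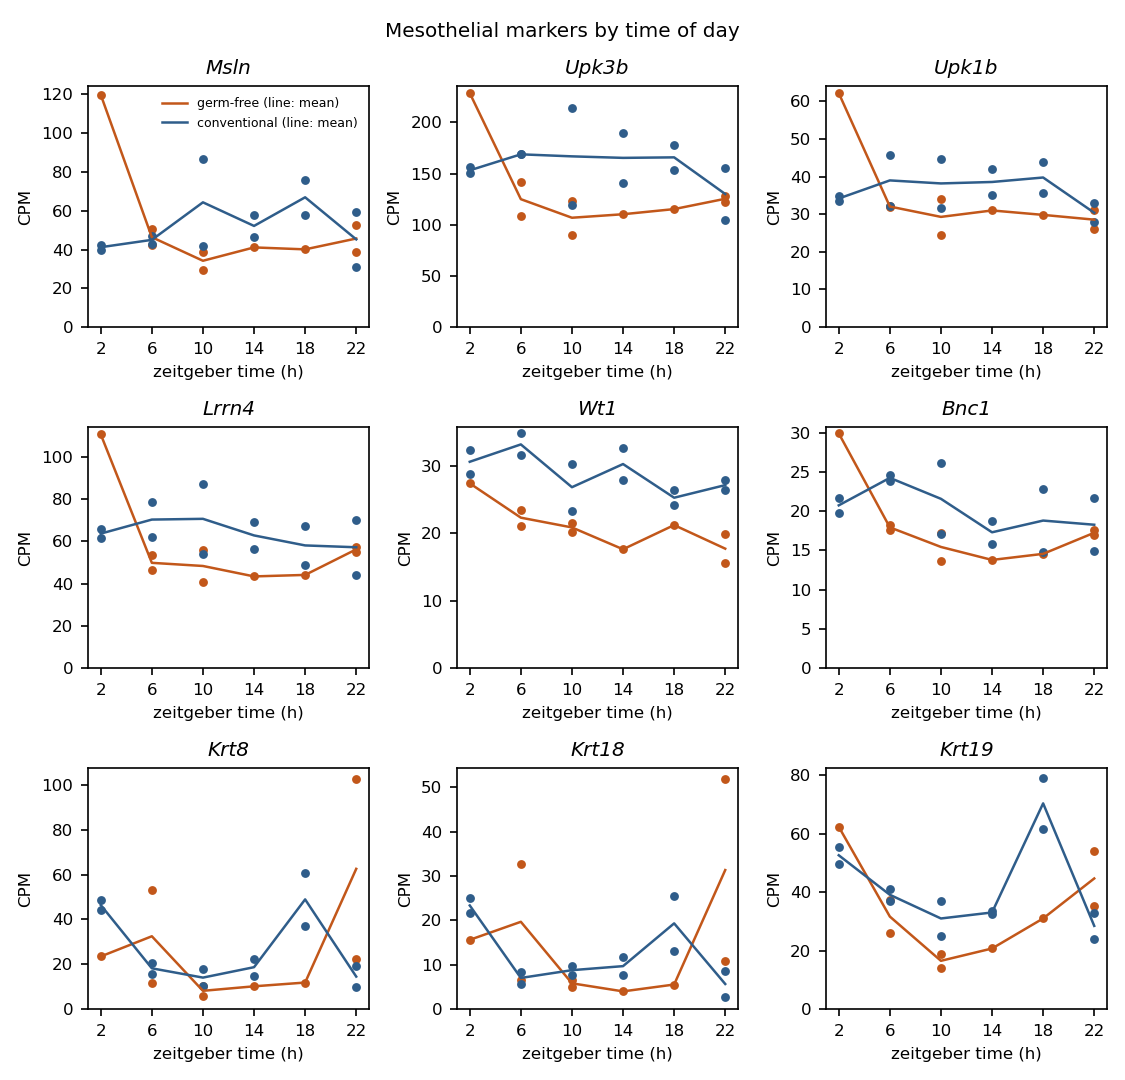
Level (CPM, y axis) of each marker against zeitgeber time (h, x axis). Points are libraries and lines join the means at each time, in orange for germ-free (1 library at ZT02, ZT14 and ZT18) and blue for conventional (2 at each time). The single germ-free library at ZT02 sets the start of the germ-free line, at 119.8 CPM for Msln and 228.6 CPM for Upk3b.

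For 3 windows of 2 times each, the fit held a mean per arm and window and no term for time within a window. Germ-free libraries were unevenly spread over the 2 times of a window, so differences in time can enter these fold changes. Wt1 was the marker that passed. Within ZT10 and ZT14 its log2 fold change was -0.53 ± 0.12 (edgeR quasi-likelihood adjusted p = 0.0200; 2.86% of genes lower, 4.31% higher), and within ZT18 and ZT22 it was -0.47 ± 0.12 (adjusted p = 0.0144; 7.97% of genes lower, 9.36% higher). Within ZT02 and ZT06 none of the 9 passed (0.769% of genes lower, 0.693% higher), with Wt1 at -0.41 ± 0.12 (adjusted p = 0.104) and Msln at 0.72 ± 0.32 (adjusted p = 0.309). The Wt1 call in the middle window was lost without conventional ZT10 replicate 1, germ-free ZT10 replicate 1 or germ-free ZT14 replicate 2, and that in the last window without germ-free ZT22 replicate 2. Whether the arm difference varied over the windows was tested directly, and no marker passed. No gene of the 18334 passed either (0% called by edgeR, 2133 at an unadjusted p under 0.05). Msln came nearest, with an unadjusted p of 0.0174 and an adjusted p of 0.338.

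A rhythm of period 24 h was called for 1 of 9 markers in germ-free fat, where 4.64% of genes passed, and for none in conventional fat, where 0.813% passed. In the conventional arm, 0 of the 9 passed by DESeq2 as well (4.45% of genes called), and none had an unadjusted p under 0.05 by edgeR, where 2579 of the 18334 genes did. The germ-free call was Krt19, with a log2 amplitude, the rise of the fitted cosine from mean to peak, of 0.87 and a peak at ZT 0.21 h (edgeR quasi-likelihood adjusted p = 0.0449). It remained only without conventional ZT02 replicate 1, ZT10 replicate 2, ZT18 replicates 1 or 2, ZT22 replicates 1 or 2, or germ-free ZT22 replicate 2, and was lost without each of the other 14 libraries, germ-free ZT02 replicate 2 among them. With the duct and gland markers as a covariate, or without the 6 libraries rich in them, none of the 9 passed (3.66% and 4.45% of genes called), and DESeq2 called 3, Krt19, Krt8 and Bnc1 (11.1% of genes called).

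Besides Krt19, 6 markers had an unadjusted p under 0.05 in the germ-free arm, with adjusted p from 0.109 to 0.198, where 4177 of the 18334 genes were under 0.05 unadjusted. These were Bnc1, Krt8, Lrrn4, Krt18, Msln and Upk3b, with fitted peaks between ZT 0.65 h and ZT 2.4 h and log2 amplitudes from 0.38 for Upk3b to 1.61 for Krt18. ZT02, the sampled time nearest to most of these peaks, was covered by 1 germ-free library. The difference of the rhythms between arms passed for no marker and no gene (0% called by edgeR, 1415 at an unadjusted p under 0.05), and for no marker by DESeq2. Msln had the smallest p among the markers, 0.00883 unadjusted and 0.606 adjusted.

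Correlations across the 21 libraries were summarised in 2 chosen sets, the 6 markers other than keratins and the 3 keratins. No clustering was run. Over the 15 pairs of the 6 markers other than keratins, Pearson's r of log2 CPM ran from 0.32 to 0.92 with a median of 0.79, and Spearman's rho from 0.42 to 0.89. Of these pairs, 14 had an adjusted permutation p under 0.05 for r and 14 for rho, with adjustment over all 36 pairs of markers. The pair outside was Wt1 and Msln (r = 0.32, permutation p = 0.158, adjusted 0.197; rho = 0.42, p = 0.0580, adjusted 0.0696). Without the 2 libraries farthest from the median of the first gene, r over the 15 pairs ran from 0.26 to 0.87, within germ-free libraries from 0.50 to 0.96, and within conventional libraries from 0.02 to 0.87.

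The closest of these pairs was Lrrn4 and Bnc1, with r = 0.92 and rho = 0.88, each at a permutation p of 1e-05, the smallest that 100000 permutations can give (adjusted 4.5e-05 and 7.2e-05). It held at r = 0.87 without the 2 farthest libraries, 0.95 within germ-free and 0.87 within conventional libraries. Upk3b had r = 0.88 with Lrrn4 and r = 0.85 with Bnc1 (adjusted permutation p = 4.5e-05 each; rho = 0.89 and 0.83, adjusted 7.2e-05 each). Without the farthest 2 libraries they stood at r = 0.82 and 0.78, within germ-free libraries at 0.90 and 0.94, and within conventional libraries at 0.83 and 0.72.

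Wt1 was the loosest member of this set, with r from 0.32 to 0.65 against the other 5. As a ratio, 100 times Wt1 over Upk3b was 16.8 ± 3.91 in germ-free and 18.7 ± 3.02 in conventional libraries (SD, n = 9 and 12), and 12.0 in germ-free ZT02 replicate 2, the lowest of its arm.

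The keratins, the second set, had r from 0.74 to 0.94 over their 3 pairs, all with an adjusted permutation p under 0.05. Krt8 and Krt18 reached r = 0.94 and rho = 0.95 (permutation p = 1e-05 each, adjusted 4.5e-05 and 7.2e-05), with 0.93 without the 2 farthest libraries, 0.97 within germ-free and 0.92 within conventional libraries. Between the sets, the 18 pairs had r from 0.08 to 0.65 with a median of 0.35. Of these 18, 5 passed for r, and all 5 were pairs of Krt19, with Msln, Upk3b, Upk1b, Lrrn4 and Bnc1. Krt19 had r = 0.62 with Msln and 0.65 with Upk3b, against 0.32 and 0.65 for Wt1 with the same genes. The values within and between the sets thus overlapped. For rho 7 passed, the added pairs being Lrrn4 with Krt8 and with Krt18. Without the 6 libraries rich in duct transcripts, an alternative chosen after seeing the data, the median r of these 18 pairs was 0.62.

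**Figure D4:**
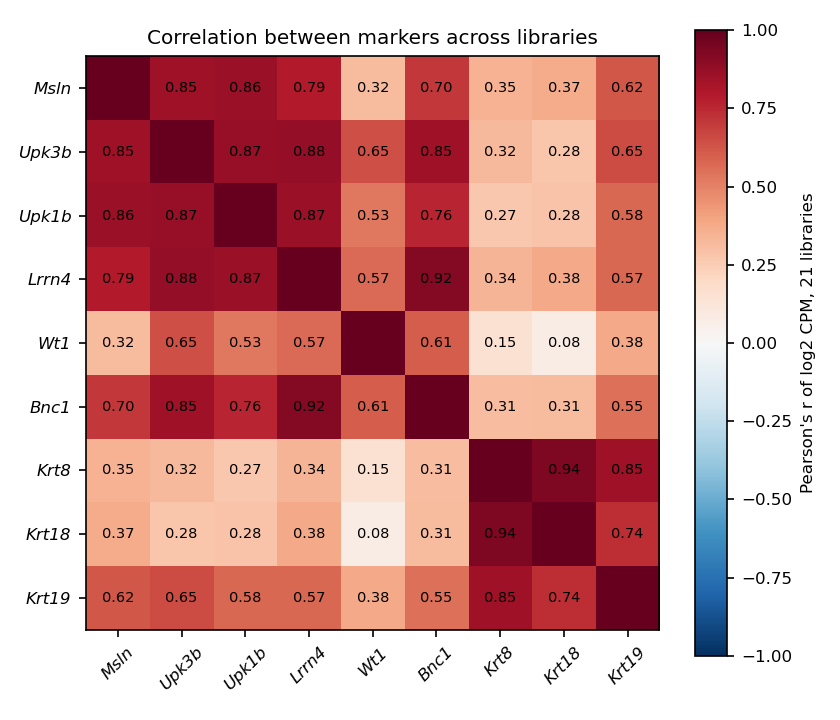
Pearson's r of log2 CPM over 21 libraries for each pair of the 9 markers (both axes; color scale from -1 to 1). The order of the genes was chosen. The 6 markers from Msln to Bnc1 have values from 0.32 to 0.92 among themselves, and the 3 keratins from 0.74 to 0.94. Krt19 is the keratin closest to the 6 other markers.

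Krt18, and less uniformly Krt8, tended to be higher where transcripts of neighbouring ducts and glands were higher. No such relation passed for the surface markers. Summed markers of ciliated duct cells, epididymal epithelium and male accessory glands had a median of 37.9 CPM in germ-free libraries (range 13.5 to 1339) and 101 CPM in conventional libraries (range 14.5 to 1954). Against that sum, Krt18 had r = 0.65 (permutation p = 0.00167, adjusted over 9 relations 0.0150) and rho = 0.64 (p = 0.00240, adjusted 0.0216), with r = 0.72 without the 2 farthest libraries, 0.81 within germ-free and 0.47 within conventional libraries. Krt8 had r = 0.61 (permutation p = 0.00396, adjusted 0.0178) and rho = 0.55 (p = 0.0115, adjusted 0.0519), with r = 0.77 without the 2 farthest libraries, 0.85 within germ-free and 0.27 within conventional libraries.

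The other 7 markers did not pass: Krt19 had r = 0.35, and the 6 markers other than keratins had r between -0.16 and 0.00. In the 6 libraries rich in duct transcripts the median level was 46.4 CPM for Krt8, 23.4 CPM for Krt18 and 125 CPM for Upk3b, against 15.6, 7.61 and 153 CPM in the other 15. Some libraries stood off the Krt8 relation. Farthest along the sum, conventional ZT10 replicate 2 had 1954 CPM of these markers and 10.2 CPM of Krt8. Of that sum, 1904 CPM came from the accessory gland list. Germ-free ZT22 replicate 2 had 455 CPM of these markers and 22.4 CPM of Krt8. Conventional ZT18 replicate 1 had 64.2 CPM of them and 37.1 CPM of Krt8. Against the ciliated duct list alone, chosen after seeing the data, Krt8 had r = 0.77 and rho = 0.61 (permutation p = 1.2e-04 and 0.00399, adjusted 5.4e-04 and 0.0180). There r was 0.65 without the 2 farthest libraries, 0.90 within germ-free and 0.58 within conventional libraries.

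**Figure D5:**
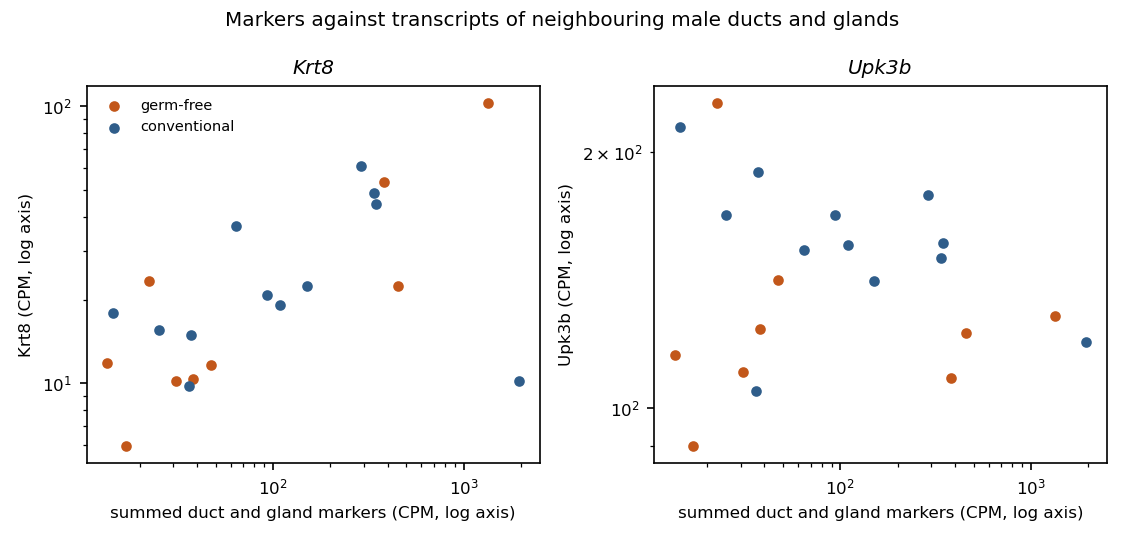
Level of Krt8 (left) and Upk3b (right; CPM, log axes) against the summed CPM of ciliated duct, epididymal and accessory gland markers (log axes), with 9 germ-free libraries in orange and 12 conventional libraries in blue. Krt8 tends to be higher where the sum is higher (r = 0.61), with exceptions such as conventional ZT10 replicate 2 at the far right. Upk3b has r of -0.14.

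Among 15427 genes with a mean of at least 1 CPM, those whose profile over the 21 libraries was most like the mean of the 6 markers other than keratins were Pkhd1l1 (r = 0.96), Gpm6a (0.93), Aldh1a2 (0.92), Efemp1 (0.91), Ptgis (0.91), Nkain4 (0.90), Clu (0.90), Plekhb2 (0.90), C1ra (0.90) and Fbln1 (0.90). Of the 10, 4 (Pkhd1l1, Gpm6a, Aldh1a2 and Nkain4) belong to the wider mesothelial list. Aldh1a2 makes retinoic acid, Ptgis makes prostacyclin, and Efemp1 and Fbln1 are fibulins of the extracellular matrix. The keratins had other neighbours: Tmem184a (r = 0.95), Gng4 (0.93) and Ezr (0.93), the microvillus linker ezrin, for Krt8; Ccdc120 (0.95), Mapk4 (0.94) and Sgms2 (0.94) for Krt18; and Atp10a (0.93), Uggt1 (0.92) and Evpl (0.91), the junction protein envoplakin, for Krt19. These values describe likeness over libraries that share 1 high germ-free library and carry no test.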

How the data were processed

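Total RNA-seq libraries of epididymal fat were compared between 9 germ-free and 12 conventional libraries. The authors deposited raw read counts per gene over exons, and these counts were used as deposited. Per the submitters' processing notes, STAR 2.4.0i and mm10 were used, and per the labels' protocols the libraries were stranded, ribosome-depleted and paired-end. How reads were counted (program, strand setting, annotation) is not given in the sources used here, so antisense overlaps cannot be resolved.

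Counts were analysed with R 4.3.3, edgeR 4.0.16, DESeq2 1.42.0 and limma 3.58.1. Figures were plotted with Python 3.11.15 and matplotlib 3.10.9. filterByExpr kept 18334 genes, TMM scaled the libraries, and arms were compared by edgeR's quasi-likelihood F test with time as a 6-level factor. Rhythms used a mean, cosine and sine of period 24 h per arm, and windows a mean per arm and window. Benjamini-Hochberg adjustment ran over all genes tested, with a threshold of 0.05. Correlations used 100000 2-sided permutations of log2 CPM (prior count 2). The fits were tested on simulated data. Alternatives were RLE factors, DESeq2, no filter, a replicate block, each library left out, subsets of times and numbers, duct markers as a covariate or as a reason to leave libraries out, exon length offsets and another time term.

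The members and lists were chosen with earlier results of these data known. All 9 members are named. From the wider list up to 4 called genes per direction and 2 that did not pass were named by smallest p, plus the 10 most alike genes and 3 per keratin. Krt80, Calb2 and the other uroplakins were named after their values were seen. Positions are from GENCODE M21 on GRCm38, matched by gene identifier, and promoters from RefSeq on GRCm38.p6, with entries for 5 of 9 members.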

Additional observations from a re-analysis of the deposited data

Results flagged for a closer look

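In all, 6 values stood apart from the rest of their arm by Dixon's test, in which the gap to the nearest library exceeded 0.493 of the range of the 9 germ-free libraries. Chance flags about 1 in 20 groups, and the markers tested here move together, so these are not independent. Of these, 5 came from germ-free ZT02 replicate 2, the only germ-free library at its time: Msln at 119.8 CPM (next highest 52.5), Upk3b at 228.6 CPM (next 141.5), Upk1b at 62.2 CPM (next 34.1), Lrrn4 at 110.8 CPM (next 57.5) and Bnc1 at 29.9 CPM (next 18.2). Wt1 was 27.4 CPM in that library, with 23.5 CPM next, and was not set apart. The other was Krt8 at 102.7 CPM in germ-free ZT22 replicate 1 (next 53.4), the germ-free library with the most duct and gland transcripts. Groups of more than 10 libraries were not tested, which left out the conventional arm.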

How the results depend on the processing

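Wt1 stayed lower under all 12 alternatives and all 21 fits without 1 library, from -0.59 to -0.41 and from -0.51 to -0.43 in log2, and no marker was called higher in any. Where a count changed, the cause was not tested. With the replicate block, Wt1 was -0.45 (edgeR quasi-likelihood adjusted p = 0.00124) and 1 wider-list gene was higher (14.4% of genes called higher). In that fit 0 markers were rhythmic in germ-free fat (3.85% of genes called), and no other counted result changed. Over genes, the replicate 1 minus replicate 2 difference in log2 CPM correlated between the arms at 0.56 (ZT06), 0.22 (ZT10) and -0.18 (ZT22). These 3 values differ in sign and size, so they cannot tell whether the numbers mark a shared batch. The markers lower in germ-free fat (1) numbered 7 without the duct-rich libraries (11.8% of genes called lower). In that fit germ-free ZT02 replicate 2 drops out of the contrast. With the cosine term there, Wt1 alone was lower (7.93%). Markers lower numbered 0 within libraries numbered 1 (0%) or numbered 2 (2.57%) alone. Wider-list genes higher (2) numbered 1 without the filter (6.41% of genes called higher) or with the other time term (16.1%). They numbered 0 without the duct-rich libraries (9.68%, or 7.08% with the cosine term) and at ZT06, ZT10 and ZT22 alone (2.96%). Within number 1 (0%) or number 2 (2.45%) they numbered 0 as well. Wider-list genes lower (1) numbered 8 without the duct-rich libraries (11.8% of genes called lower). With the cosine term there, Gata6 alone was lower (7.93%). Wider-list genes lower numbered 2 at the 3 times (6.44%) or by DESeq2 (13.4%), and 0 within number 1 (0%) or number 2 (2.57%). Rhythmic markers in germ-free fat (1) numbered 0 with the duct covariate or without the duct-rich libraries and 3 by DESeq2 (Krt19, Krt8 and Bnc1; 11.1% of genes called). With the duct covariate, Wt1 also passed within ZT02 and ZT06, where the share of all genes called was not recorded. Krt18 turned to -0.96 without the duct-rich libraries (-0.42 with the cosine term) and -0.49 within number 2, Krt8 to 0.73 at the 3 times and 0.58 within number 1, and Bcam to -0.048 without the duct-rich libraries. Leaving out each library gave 1 to 5 markers lower, 0 to 2 wider-list genes higher and 1 to 6 lower, 0 to 1 rhythmic markers, 0 to 3 rhythmic wider-list genes in germ-free fat, 0 to 1 markers called in the middle and last windows, and 0 for the other counts. Over those fits 9.72% to 13.2% of genes were called lower, 8.59% to 15.5% higher and 2.09% to 6.03% rhythmic in germ-free fat. Shares for the windows were not recorded there. Without 1 library, fold changes ran from -0.36 to 0.071 for Msln, -0.39 to 0.22 for Krt8 and -0.16 to 0.52 for Krt18. Depth did not limit the markers, which had 71 reads or more in each library; 1 library at 3 germ-free times limits every statement on time.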
